A study of Homo sapiens with 10 samples.

Results

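Deubiquitinases other than USP9X were followed after knockdown of USP9X in human cells labelled as brain endothelium, to see whether the mRNA of any other enzyme of the class was higher when USP9X was low. Members were taken by symbol: every numbered USP, OTUD, OTUB1, OTUB2, UCHL1, UCHL3 and UCHL5 gene together with BAP1, CYLD, ATXN3, STAMBP and BRCC3, leaving out USP9X itself, USP9Y and USP18. This gave 67 genes of the 58735 lines in the count table, and 59 of them had enough counts to be tested. RNA was sequenced from HCMECs, recorded as a cell line of brain endothelium, in 10 libraries. The cells of 5 libraries had been transfected with small interfering RNA (siRNA) against USP9X (siUSP9X) and those of the other 5 with a control siRNA (siCtrl), for 48 h in each case. All 10 libraries came from cells then given the ligand Wnt3a for 12 h, and no unstimulated cells were analysed here. The labels name no source for the line and do not say whether libraries of a group are separate cultures, so the spread behind each p-value is that of the libraries and may be technical.

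Ubiquitin is a small protein that is attached to other proteins, singly or in chains, to mark them for degradation by the proteasome or to change where they go and what they bind. Deubiquitinases remove it. The largest family, the ubiquitin-specific proteases (USP), includes USP9X, which acts on proteins of the Wnt, TGF-beta and cell survival pathways. The OTU and UCH families and the zinc-dependent JAMM enzymes, here STAMBP and BRCC3, make up most of the rest, and several enzymes can share a substrate.

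Library totals ran from 15958362 to 20442278 counts in siUSP9X and from 17716250 to 26467787 counts in siCtrl. Of 17 endothelial markers, 5 (ESAM, PROCR, ENG, EGFL7 and SOX18) reached a mean of 1 CPM, which stands for counts per 1e+06 counts of the scaled library total, and the 17 summed to 159 to 367 CPM in siUSP9X and 322 to 397 CPM in siCtrl. The defining endothelial genes PECAM1 (8 counts over all siUSP9X libraries, 8 over all siCtrl libraries), CDH5 (74 and 53), VWF (4 and 5) and CLDN5 (6 and 22) were each under 1 CPM, so the labelled cell type is not borne out by its usual markers. Of 7 epithelial markers, 2 (KRT8 and KRT18) reached 1 CPM, and the 7 summed to 2031 to 2759 CPM in siUSP9X and 3317 to 4179 CPM in siCtrl. Of 7 neural and glial markers 1 reached 1 CPM, MBP, with a mean of 85.0 CPM in siUSP9X and 91.2 CPM in siCtrl. So did 3 of 7 pericyte and smooth muscle markers and 1 of 5 fibroblast markers. No leukocyte or microglia marker reached 1 CPM. The part of these marker differences in the results below was not tested. Counts came from bulk RNA, in which fewer cells of a type and less RNA per cell cannot be told apart.

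One library stood apart. In siUSP9X replicate 2 the count-weighted GC content of the transcripts was 47.1%, where siUSP9X replicates 1, 3, 4 and 5 had 49.6% to 50.3% and siCtrl 49.4% to 50.7%. Ribosomal protein mRNAs held 1.96% of the counts in that library, where siUSP9X replicates 1, 3, 4 and 5 had 4.10% to 4.77% and siCtrl 4.42% to 5.84%. For the main results the value without this library is given as well.

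USP9X mRNA was 9.68-fold lower in siUSP9X cells (log2 fold change -3.28 ± 0.29, SE, edgeR quasi-likelihood test, Benjamini-Hochberg adjusted p = 0.000403). It stood at 36.5, 68.8, 27.6, 22.4 and 20.7 CPM in siUSP9X replicates 1 to 5 and at 416, 283, 330, 324 and 352 CPM in siCtrl replicates 1 to 5. The groups did not overlap, and siUSP9X replicate 2 was the highest of its group. Per kilobase of transcript, USP9X averaged 2.84 ± 1.596 CPM in siUSP9X and 27.5 ± 3.92 CPM in siCtrl (SD, n = 5 each), and in siCtrl 10 of the other deubiquitinases stood above it on that scale. As a share of the summed per-kilobase level of USP9X and the members, it was 0.280 ± 0.103% in siUSP9X and 2.89 ± 0.323% in siCtrl (SD, n = 5 each).

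Of the 59 tested members 2, USP46 and USP48, passed an edgeR adjusted p of 0.05 on the higher side and 2, BAP1 and USP11, on the lower side. These 4 are 6.78% of the members, where 7.31% of the 13934 tested genes were called (4.09% higher and 3.22% lower), so the share of members called was near that of all genes. At an unadjusted p under 0.05 there were 19 members (32.2%), 14 higher and 5 lower, where 27.8% of all tested genes had one (15.9% higher and 11.9% lower). The libraries of the groups did not overlap for 9 members, 15.3% of them, against 14.6% of all tested genes (7.79% higher and 6.85% lower). These were USP46, USP48, USP53, USP32 and USP27X on the higher side and BAP1, USP11, OTUD1 and USP36 on the lower side. The log2 fold changes of the 59 members ran from -0.75 (OTUD1) to 1.10 (USP53). Their median was 0.21 with 42 of 59 positive, against a median of 0.03 and 52.4% positive over all tested genes.

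**Figure D1:**
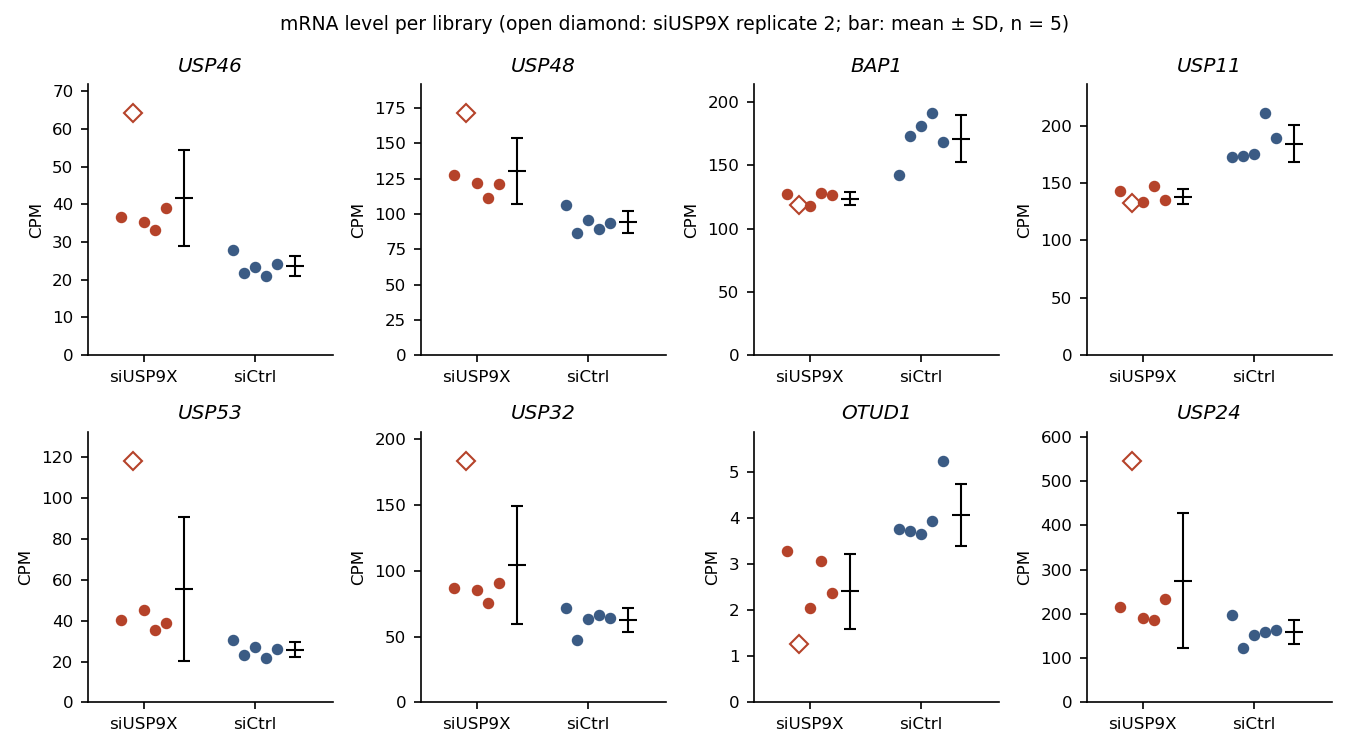
CPM (vertical axis) in each library for the 4 members called, the 3 nearest the threshold and USP24, with siUSP9X on the left and siCtrl on the right of each panel; black bars are mean ± SD (n = 5) and the open diamond is siUSP9X replicate 2. The diamond is far above the other siUSP9X points for USP53, USP32 and USP24, while BAP1 and USP11 show tight siUSP9X values below every siCtrl library.

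USP46 rose in siUSP9X cells. This enzyme works with the WD-repeat partners WDR48 and WDR20, as does its close paralogue USP12, and in worms and mammals it acts on glutamate receptors. USP46 (ENSG00000109189.12, chromosome 4, 52590972 to 52659335, minus strand, GRCh38) had 36.7, 64.1, 35.4, 33.1 and 38.9 CPM in siUSP9X replicates 1 to 5 and 27.8, 21.8, 23.5, 21.1 and 24.3 CPM in siCtrl replicates 1 to 5. Every siUSP9X library was above every siCtrl library, and replicate 2 was the highest. The log2 fold change was 0.81 ± 0.18 (SE, edgeR adjusted p = 0.0221), and it was 0.61 (adjusted p = 0.000219) without siUSP9X replicate 2. With each library left out in turn USP46 passed 6 of 10 times, and missed the threshold without siCtrl replicate 2, 3, 4 or 5 (adjusted p of 0.0587 to 0.0694). Over all alternatives its adjusted p ran from 6.81e-06 to 0.127.

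USP12, the paralogue, averaged 75.2 ± 27.0 CPM in siUSP9X and 52.5 ± 6.56 CPM in siCtrl (SD, n = 5 each), a log2 difference of 0.52 that did not pass the threshold (edgeR adjusted p = 0.127). Leaving out siUSP9X replicate 2, the difference was 0.27, with 63.3 ± 4.99 CPM in siUSP9X (SD, n = 4), and with offsets for GC content and transcript length it was 0.21, and it passed in both cases. The partner WDR48 averaged 81.3 ± 41.9 CPM in siUSP9X and 57.8 ± 4.71 CPM in siCtrl, and WDR20 19.2 ± 1.497 CPM in siUSP9X and 19.8 ± 2.17 CPM in siCtrl (SD, n = 5 each). Neither partner passed the threshold. When siUSP9X replicate 2 was left out, WDR48 averaged 62.5 ± 1.71 CPM in siUSP9X (SD, n = 4) and its log2 difference was 0.11, against 0.49 with all libraries.

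USP48, which removes ubiquitin from histone H2A at the site that BRCA1 marks and also acts on the NF-kB subunit RelA, also rose. USP48 (ENSG00000090686.15, chromosome 1, 21678298 to 21783606, minus strand) had 128, 171, 122, 112 and 121 CPM in siUSP9X replicates 1 to 5 and 107, 86.6, 95.8, 89.5 and 93.6 CPM in siCtrl replicates 1 to 5. Again no siUSP9X library fell within the siCtrl range, though the lowest siUSP9X library was close to the highest siCtrl library. The log2 fold change was 0.47 ± 0.13 (SE, edgeR adjusted p = 0.0450) with all libraries and 0.35 (adjusted p = 0.00356) without siUSP9X replicate 2. USP48 passed without siUSP9X replicate 2 or siUSP9X replicate 4 and missed the threshold without any other library (adjusted p of 0.0530 to 0.116). Over all alternatives its adjusted p ran from 6.58e-05 to 0.191.

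BAP1 fell in siUSP9X cells. BAP1 is a nuclear tumour suppressor of the UCH family that removes ubiquitin from histone H2A, in complexes with ASXL proteins. BAP1 (ENSG00000163930.9, chromosome 3, 52401013 to 52410350, minus strand) had 127, 119, 118, 128 and 127 CPM in siUSP9X replicates 1 to 5 and 142, 173, 181, 191 and 168 CPM in siCtrl replicates 1 to 5. The siUSP9X libraries lay within a narrow band below all of siCtrl, with replicate 2 inside that band. The log2 fold change was -0.47 ± 0.10 (SE, edgeR adjusted p = 0.0181) and -0.45 (adjusted p = 0.000724) without siUSP9X replicate 2. Of the 10 libraries, leaving out siCtrl replicate 3 (adjusted p = 0.0620) or siCtrl replicate 4 (adjusted p = 0.0574) ended the call, and over all alternatives the adjusted p ran from 1.12e-06 to 0.139.

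USP11 fell by a similar amount. It is a nuclear enzyme with roles in BRCA2-dependent repair and in TGF-beta receptor signalling, and USP4 and USP15 are its paralogues. USP11 (ENSG00000102226.9, chromosome X, 47232690 to 47248328, plus strand) had 143, 132, 133, 147 and 134.8 CPM in siUSP9X replicates 1 to 5 and 173, 173, 175, 211 and 189 CPM in siCtrl replicates 1 to 5. The groups did not overlap. The log2 fold change was -0.41 ± 0.09 (SE, edgeR adjusted p = 0.0221), and it was -0.40 without siUSP9X replicate 2. Leaving out siUSP9X replicate 3 or 5, or siCtrl replicate 3, 4 or 5, ended the call (edgeR adjusted p of 0.0574 to 0.0677), and over all alternatives the adjusted p ran from 7.98e-06 to 0.140. The paralogues did not pass the threshold: USP4 averaged 60.1 ± 12.9 CPM in siUSP9X and 61.6 ± 3.76 CPM in siCtrl, and USP15 averaged 67.8 ± 19.2 CPM in siUSP9X and 65.8 ± 6.97 CPM in siCtrl (SD, n = 5 each). Their log2 differences without siUSP9X replicate 2 were -0.18 for USP4 and -0.14 for USP15, against -0.035 and 0.04 with all libraries. With GC and length offsets USP15 was lower and passed the threshold, at -0.54 with all libraries and -0.43 without siUSP9X replicate 2. These offsets rest on 1 reference transcript of 14950 bases for USP15, and whether the cells use that transcript was not tested.

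Of the members that missed the threshold, USP53, USP32 and OTUD1 had the smallest p. USP53 is a protein of tight junctions, the seals between neighbouring endothelial or epithelial cells. It had 40.6, 118, 45.1, 35.2 and 38.8 CPM in siUSP9X replicates 1 to 5 and 30.8, 23.3, 27.1, 21.9 and 26.2 CPM in siCtrl replicates 1 to 5. All siUSP9X libraries were above siCtrl, and replicate 2 was above any other library by a wide margin. Its log2 fold change was 1.10 ± 0.31 (SE, edgeR adjusted p = 0.0561), and without siUSP9X replicate 2 it was 0.63 (adjusted p = 0.000390). USP53 also passed with upper-quartile factors, library totals, DESeq2, library weights or GC and length offsets, and its adjusted p over all alternatives ran from 5.14e-06 to 0.192.

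USP32 is a membrane-bound enzyme of the Golgi and late endosomes that acts on Rab7. It had 86.5, 183, 85.1, 75.8 and 90.8 CPM in siUSP9X replicates 1 to 5 and 71.5, 47.5, 63.4, 66.4 and 63.8 CPM in siCtrl replicates 1 to 5. The pattern was that of USP53: no overlap, with replicate 2 far above the rest. With all libraries the log2 fold change was 0.74 ± 0.23 (SE, edgeR adjusted p = 0.0758), and it was 0.44 (adjusted p = 0.00513) without siUSP9X replicate 2, and the adjusted p over all alternatives ran from 0.000146 to 0.259.

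OTUD1, an OTU enzyme that acts in innate immune signalling, was the member with the lowest fold change and 1 of 5 tested members with a mean under 5 CPM. It had 3.29, 1.27, 2.05, 3.08 and 2.38 CPM in siUSP9X replicates 1 to 5 and 3.76, 3.73, 3.66, 3.94 and 5.25 CPM in siCtrl replicates 1 to 5. The siUSP9X libraries were all below siCtrl, with replicate 2 the lowest and siCtrl replicate 5 the highest. Its log2 fold change was -0.75 ± 0.24 (SE, edgeR adjusted p = 0.0767), and without siUSP9X replicate 2 it was -0.59 (adjusted p = 0.0323), and the adjusted p over all alternatives ran from 0.00590 to 0.187.

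Among the remaining members, the largest positive fold changes belonged to USP34, USP37 and USP24, and none passed the main edgeR threshold over all libraries. With all libraries, USP24 was called higher by DESeq2, by limma-voom with library weights and by edgeR with GC and length offsets. USP34 was called higher with library weights. Over all alternatives the adjusted p ran from 0.0174 to 0.369 for USP34 and from 0.0750 to 0.466 for USP37. USP34 stabilises axin, a scaffold of the Wnt pathway. It had 207, 681, 188, 148 and 198 CPM in siUSP9X replicates 1 to 5 and 189, 89.3, 142, 134 and 157 CPM in siCtrl replicates 1 to 5. Replicate 2 was far above every other library, and siUSP9X replicates 3 and 4 lay below siCtrl replicate 1. The log2 difference was 0.999 (edgeR adjusted p = 0.133) with it and 0.38 (adjusted p = 0.113) without. Exons of AHSA2P overlap USP34 on the opposite strand, with 4023 counts over all libraries against 39126 for USP34. USP37, which acts on cyclin A and in DNA replication, had 24.0, 77.7, 22.7, 15.9 and 22.9 CPM in siUSP9X replicates 1 to 5 and 22.7, 9.51, 17.01, 18.1 and 19.3 CPM in siCtrl replicates 1 to 5. Its log2 difference was 0.91 (edgeR adjusted p = 0.169) with replicate 2 and 0.30 (adjusted p = 0.255) without, and the groups overlapped in both cases.

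USP24 is a large enzyme of the USP family related to USP9X. USP24 (ENSG00000162402.13, chromosome 1, 55066359 to 55215113, minus strand) had 216, 546, 191, 186 and 235 CPM in siUSP9X replicates 1 to 5 and 197, 122, 152, 159 and 165 CPM in siCtrl replicates 1 to 5. Replicate 2 was highest, siUSP9X replicates 3 and 4 lay just under siCtrl replicate 1, and the other libraries of siUSP9X were above all of siCtrl. The log2 difference was 0.79 ± 0.29 (SE, edgeR adjusted p = 0.109) over all libraries. Without siUSP9X replicate 2 it was 0.38 and passed the threshold (adjusted p = 0.0177), and the adjusted p over all alternatives ran from 0.00153 to 0.298. The related enzymes USP34, USP47 and USP7 had log2 differences of 0.999, 0.72 and 0.23 with all libraries and 0.38, 0.33 and 0.02 without that library, where USP47 passed the threshold and USP34 and USP7 did not.

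The negative fold changes next in size after those above were those of USP5, USP43 and USP19, and none passed the main edgeR threshold over all libraries. With all libraries, USP5 and USP19 were called lower by DESeq2 and by edgeR with GC and length offsets. Limma-voom with library weights called USP5, USP43 and USP19 lower. USP5, which takes apart free ubiquitin chains, had 162, 107, 149, 171 and 159 CPM in siUSP9X replicates 1 to 5 and 169, 208, 199.5, 212 and 188 CPM in siCtrl replicates 1 to 5. Here siUSP9X replicate 2 was the lowest library, and siUSP9X replicate 4 lay above siCtrl replicate 1. USP19, an enzyme anchored in the endoplasmic reticulum, had 48.9, 45.2, 51.9, 52.1 and 56.8 CPM in siUSP9X replicates 1 to 5 and 56.1, 59.5, 62.5, 74.3 and 64.6 CPM in siCtrl replicates 1 to 5, with an overlap of 1 library. USP43 ranged from 13.6 to 23.7 CPM in siUSP9X and from 21.9 to 28.5 CPM in siCtrl. The log2 differences of USP5, USP43 and USP19 were -0.38, -0.32 and -0.31, with edgeR adjusted p of 0.0937, 0.204 and 0.0932. Without siUSP9X replicate 2, USP5 (adjusted p = 0.0138, range over all alternatives 0.000759 to 0.240) and USP19 (adjusted p = 0.0343, range 0.00269 to 0.244) passed.

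**Figure D2:**
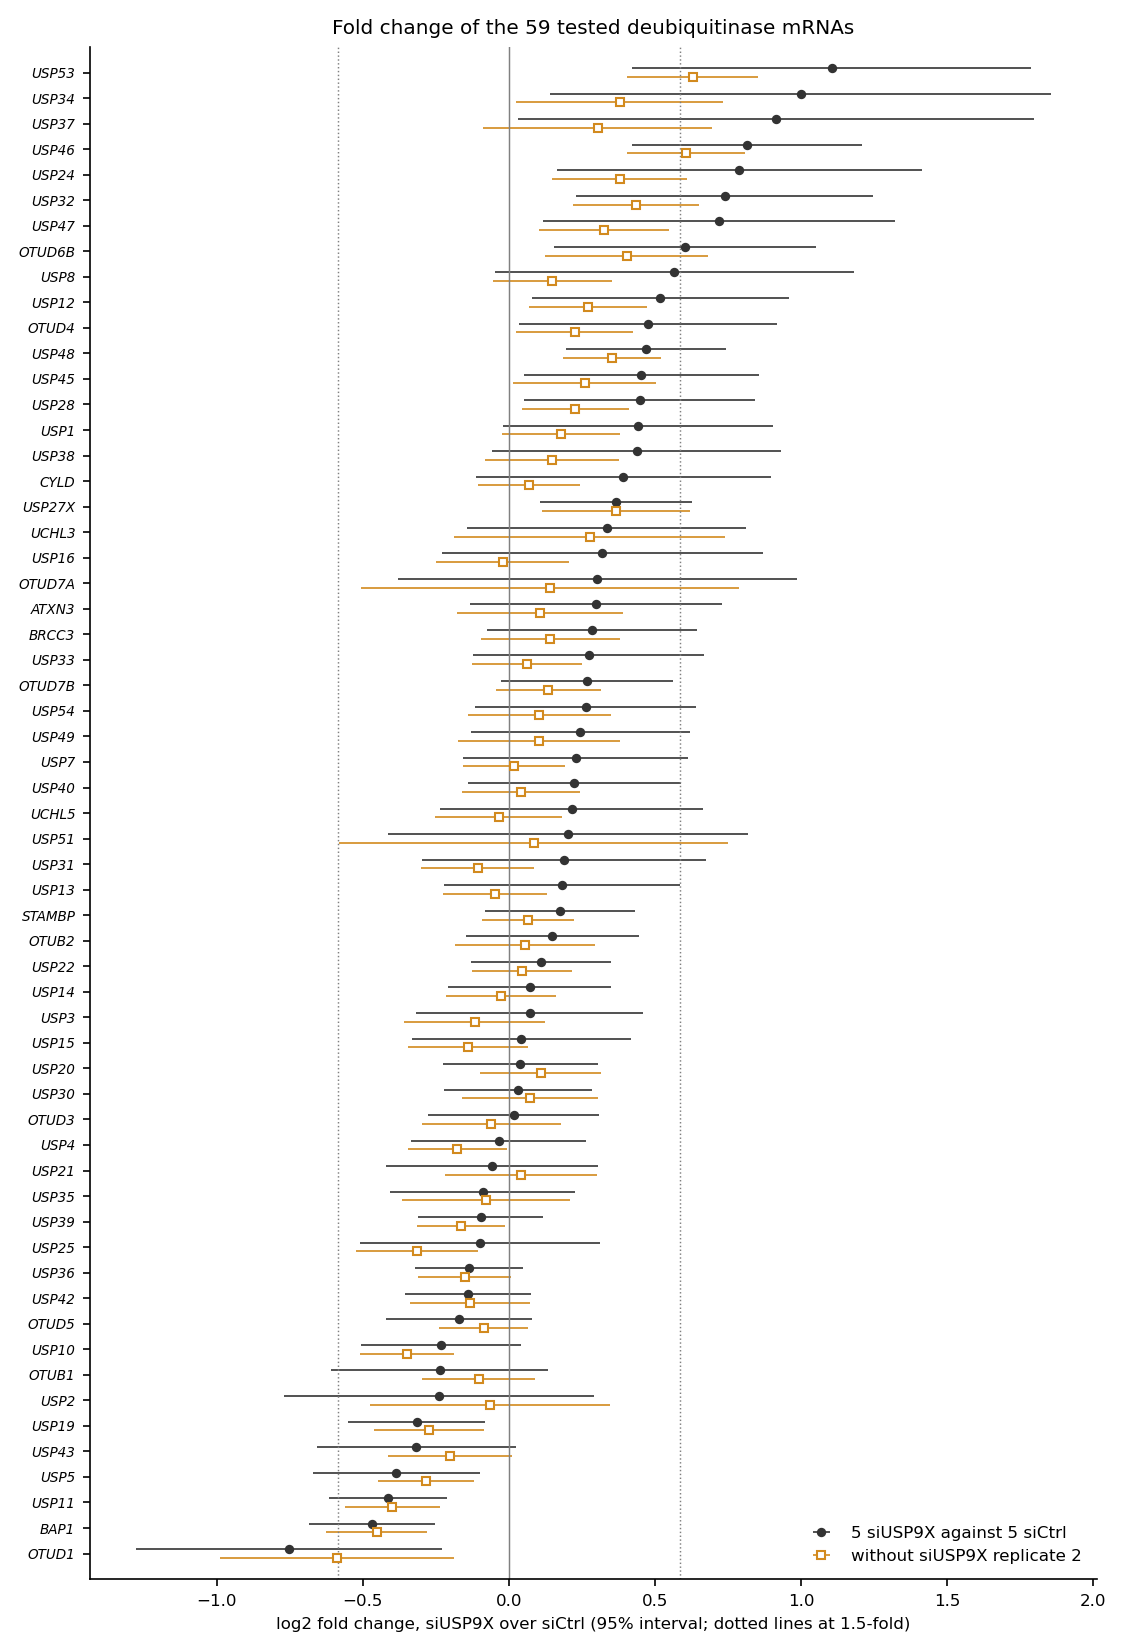
Log2 fold change of siUSP9X over siCtrl (horizontal axis) for the 59 tested members (vertical axis), with 95% intervals; filled circles use 5 siUSP9X against 5 siCtrl libraries, open squares leave out siUSP9X replicate 2, and dotted lines mark 1.5-fold. The positive values in the upper part move towards 0 and the intervals narrow when that library is left out. Intervals of the called members USP46, USP48, BAP1 and USP11 stay clear of 0 in both fits. So do those of some members not called over all libraries, among them USP53, USP32, OTUD1 and USP27X.

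Counts by role from edgeR with all libraries are set against the 7.31% of all tested genes that were called in that fit. The share of all tested genes called was 15.2% with DESeq2, 6.98% with limma-voom and 35.3% with library weights. In edgeR it was 23.4% without siUSP9X replicate 2 and 21.9% with GC and length offsets. Over all libraries, 27.8% of all tested genes had an unadjusted edgeR p under 0.05. Of 5 tested enzymes of ubiquitin recycling and the proteasome, none passed the edgeR threshold and 1 (USP5) had an unadjusted p under 0.05, while DESeq2 called 1 lower and limma-voom none. USP5 was lower without siUSP9X replicate 2, and 1 of the 5 was lower with GC and length offsets. USP14, which trims chains at the proteasome, had a log2 difference of 0.07 with a 95% interval of -0.21 to 0.35, and of -0.026 without siUSP9X replicate 2. Of 10 enzymes acting on histone ubiquitin, BAP1 was lower and 9 were not called (10% called). In edgeR there were 1 higher (USP27X) and 1 lower (BAP1) without siUSP9X replicate 2, and 1 higher and 1 lower with offsets. DESeq2 and limma-voom each called 1 lower, and library weights gave 1 higher and 1 lower. USP22, the deubiquitinase of the SAGA coactivator complex and the member with the highest level per kilobase, had a log2 difference of 0.11 with an interval of -0.13 to 0.35, and of 0.05 without siUSP9X replicate 2. USP27X, which uses the same cofactors as USP22, had 11.5 ± 1.44 CPM in siUSP9X and 8.91 ± 0.62 CPM in siCtrl (SD, n = 5 each), with no overlap and an edgeR adjusted p of 0.0822.

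Among 10 enzymes of DNA repair, p53 control and replication, 1 rose (USP48), 1 fell (USP11) and 8 were not called (20% called). In edgeR there were 1 higher and 2 lower without siUSP9X replicate 2, and 2 higher and 1 lower with offsets. DESeq2 and limma-voom each called 1 higher and 1 lower, and library weights gave 3 higher and 2 lower. USP7, which acts on MDM2 and p53, had a log2 difference of 0.23 (interval -0.16 to 0.61) with all libraries and 0.02 without siUSP9X replicate 2, and USP10, which acts on p53 and in stress granules, of -0.23 (interval -0.51 to 0.04). USP10 passed on the lower side when siUSP9X replicate 2 was left out (log2 fold change -0.35, edgeR adjusted p = 0.00341, range over all alternatives 5.98e-05 to 0.376). None of 6 enzymes of Wnt, TGF-beta and growth factor signalling was called over all libraries by edgeR, DESeq2 or limma-voom, and 2 (USP34 and USP47) had an unadjusted p under 0.05. In edgeR without siUSP9X replicate 2, there were 1 higher (USP47) and 1 lower (USP25), with offsets 1 higher and 2 lower, and limma-voom with library weights 2 higher and 2 lower. USP25, which acts on tankyrases of the Wnt pathway, stood at a log2 difference of -0.10 (interval -0.51 to 0.31). It was -0.31 and passed without siUSP9X replicate 2 (edgeR adjusted p = 0.0292, range over all alternatives 0.000214 to 0.951), and -0.28 with offsets. None of 9 enzymes of NF-kB and innate immune signalling was called over all libraries by edgeR or limma-voom, while DESeq2 called 1 lower and 2 (OTUD1 and OTUD4) had an unadjusted p under 0.05. With siUSP9X replicate 2 left out edgeR called 1 lower (OTUD1), with offsets 2 lower, and library weights gave 1 higher and 1 lower. In that group OTUD4 had a log2 difference of 0.48 (interval 0.03 to 0.92) and OTUD5 of -0.17 (interval -0.42 to 0.08). These were, without siUSP9X replicate 2, 0.23 and -0.085, and with offsets 0.08 and 0.029. Of 10 enzymes of endosomes, the endoplasmic reticulum and mitochondria, USP46 rose and 9 were not called (10% called). Among the 9 was USP33, with a log2 difference of 0.27 (interval -0.12 to 0.67) with all libraries and 0.06 without siUSP9X replicate 2. For these 10, edgeR called 3 higher and 1 lower without siUSP9X replicate 2, and likewise with offsets. DESeq2 called 2 higher and 1 lower, limma-voom 1 higher, and library weights gave 3 higher and 1 lower.

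How large a rise the data still allow differed between members. With all libraries, 25 of the 55 members that were not called had an upper 95% bound under 1.5-fold and 30 had one at or above it. The bound reached 2-fold or more for 9 members, USP34, USP37, USP53, USP24, USP47, USP32, USP46, OTUD6B and USP8. Without siUSP9X replicate 2 the upper bound was under 1.5-fold for 48 of 59 members, and both bounds lay inside 1.5-fold for 46. The median SE of the members was 0.18 on the log2 scale with all libraries and 0.10 without siUSP9X replicate 2.

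That library was the highest of all 10 for 41 of the 59 members (69.5%), against 37.6% of all tested genes, and the lowest for 10. The members have GC-poor and long transcripts: their median GC content was 45.3% and their median length 4559 bases, against 48.7% and 3228.5 bases over the tested genes that could be matched. Over the 59 members, the log2 deviation of siUSP9X replicate 2 from the other siUSP9X libraries had a Spearman correlation of -0.75 with GC content and of 0.52 with transcript length. The log2 fold change itself had one of -0.71 with GC content with all libraries and -0.54 without that library, against -0.49 and -0.24 over all matched genes. These values describe genes measured in the same libraries and are not independent. The part of transcript composition in the fold changes was not tested.

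**Figure D3:**
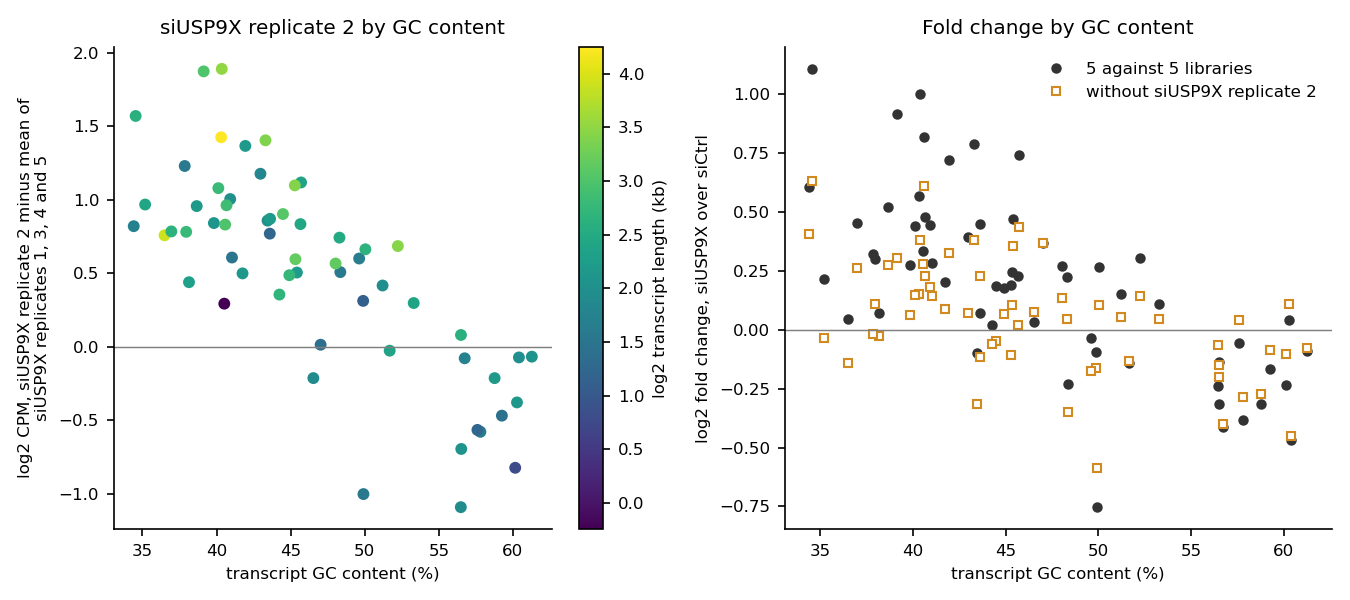
Left, log2 CPM of siUSP9X replicate 2 minus the mean of the other siUSP9X libraries against transcript GC content (percent) for the 59 tested members, coloured by log2 transcript length in kb. Right, log2 fold change of siUSP9X over siCtrl against GC content, with all libraries (filled circles) and without siUSP9X replicate 2 (open squares). GC-poor members lie high in both panels, and the slope on the right is flatter without that library.

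Leaving out siUSP9X replicate 2, 9 members were higher and 7 lower, 16 of 59 (27.1%) against 23.4% of all tested genes (11.9% higher and 11.5% lower). The 9 higher were USP46, USP48, USP53, USP32, USP24, USP47, USP12, USP27X and OTUD6B, by 1.21-fold to 1.55-fold. The 7 lower were BAP1, USP11, OTUD1, USP10, USP19, USP25 and USP5, by 1.21-fold to 1.504-fold. Members higher in this fit had a median GC content of 41.9% and those lower one of 56.7%. The median log2 fold change of the 59 members was 0.06, with 35 positive, against 0.01 over all genes.

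Offsets for GC content and transcript length in every library, added after the data were seen, gave 10 members higher and 8 lower with all libraries. That is 30.5% of the members, against 21.9% of all tested genes (11.5% higher and 10.4% lower). Only genes matched for GC content and length were corrected in the fits with offsets. With all libraries these were all 59 members but 11936 of the 13934 tested genes, so the shares are not fully alike. With the offsets and without siUSP9X replicate 2, 10 were higher and 12 lower (37.3%, against 32.8% of all genes, 16.1% higher and 16.8% lower). USP46, USP48, BAP1 and USP11 were called in all 4 of these fits. Their log2 fold changes with offsets and all libraries were 0.41, 0.31, -0.30 and -0.27, against 0.81, 0.47, -0.47 and -0.41 without offsets. Of the 16 members called without that library, 15 were also called in both fits with offsets (9 higher and 6 lower). The offsets also take out any true difference between the groups that follows GC content or length. Other tools moved the members and the background together. DESeq2 called 6 higher and 5 lower (18.3%, against 15.2% of all genes, 8.1% higher and 7.06% lower), and limma-voom 2 and 2 (6.78%, against 6.98%, 3.67% higher and 3.32% lower). With library weights, which give an aberrant library less say, limma-voom called 15 higher and 9 lower (40.7%, against 35.3%, 17.8% higher and 17.5% lower).

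The summed mRNA of the members was highest in siUSP9X replicate 2, at 6422 CPM, where siUSP9X replicates 1, 3, 4 and 5 had 3754 to 4029 CPM and siCtrl 3538 to 4159 CPM. The members summed to 4404 ± 1133 CPM in siUSP9X and 3867 ± 221 CPM in siCtrl (SD, n = 5 each). Without replicate 2 the siUSP9X sum was 3899 ± 117 CPM (SD, n = 4), inside the siCtrl range. USP9X itself was lower by 306 CPM over all libraries. Per kilobase of transcript, the members summed to 968 ± 169 CPM in siUSP9X and 920 ± 28.2 CPM in siCtrl (SD, n = 5 each), and to 892 ± 13.8 CPM (SD, n = 4) in siUSP9X without replicate 2.

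Per kilobase, the most abundant members in siCtrl were USP22, the Lys48-directed OTU enzyme OTUB1, USP5, USP10 and USP11. USP22 averaged 88.9 CPM per kilobase in siUSP9X and 82.4 in siCtrl, OTUB1 64.0 in siUSP9X and 75.3 in siCtrl, and USP5 48.5 in siUSP9X and 63.3 in siCtrl. USP10 averaged 53.7 in siUSP9X and 63.0 in siCtrl, and USP11 41.4 in siUSP9X and 55.2 in siCtrl. The ordering rests on 1 reference transcript per gene, and those of USP8 and USP15, at 19026 and 14950 bases, are far longer than the others, so their per-kilobase levels may be too low.

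**Figure D4:**
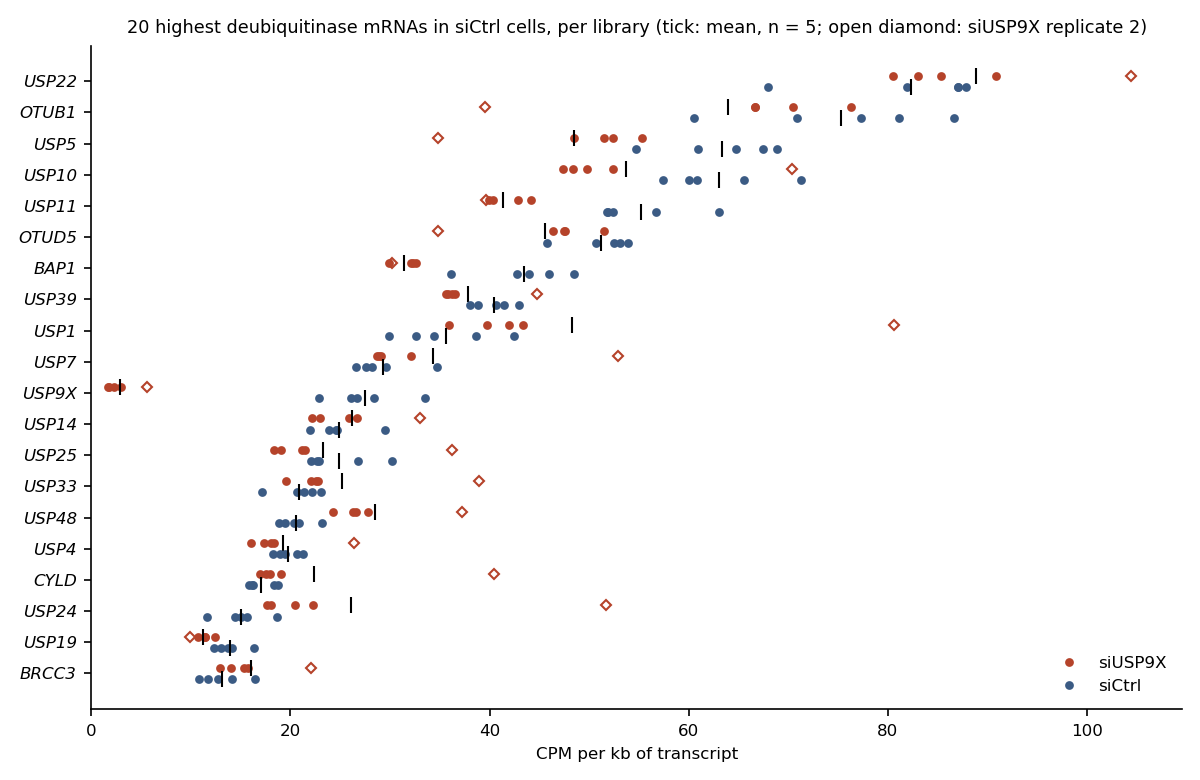
CPM per kilobase of transcript (horizontal axis) in each library for the most abundant deubiquitinases in siCtrl and for USP9X, with siUSP9X points above siCtrl points in each line; ticks are means (n = 5) and the open diamond is siUSP9X replicate 2. USP9X lies near 0 in siUSP9X, and for the members the open diamond is the point farthest from the other libraries in most lines.

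The 8 members left out by the count filter were USP6, USP50, USP44, USP41, OTUD6A, UCHL1, USP26 and USP29. USP6, a hominoid gene related to USP32, had 68 counts over the 5 siUSP9X libraries and 42 over the 5 siCtrl libraries (0.790 ± 0.322 CPM in siUSP9X and 0.436 ± 0.184 CPM in siCtrl, SD, n = 5 each). USP50 had 6 in siUSP9X and 4 in siCtrl, USP44 had 2 in siUSP9X and 5 in siCtrl, and OTUD6A had 0 in siUSP9X and 2 in siCtrl. USP41 had 0 in siUSP9X and 6 in siCtrl, all 6 in 1 library. UCHL1, a neuronal enzyme, and USP26 and USP29 had 0 counts in both groups, which allows a level of up to 0.0347 CPM in siUSP9X and 0.0299 CPM in siCtrl (3 counts of the group's total, counting error only). With no filter, edgeR called 0 of the 5 that had counts (adjusted p of 0.325 to 0.787) and 0 had an unadjusted p under 0.05. DESeq2 did not call USP6 (DESeq2 adjusted p = 0.180). It gave no adjusted p for USP50, USP44, USP41 and OTUD6A, so these could not be called by it.

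The 3′ untranslated regions (UTRs) were also looked at, since an siRNA can lower transcripts that hold a match to its seed, the stretch of bases near its 5′ end. No source used here gives the siRNA sequence. In its place 4 words of 7 bases were searched on the transcript strand. Words were ranked by the mean log2 fold change of their genes, adjusted for UTR length, GC content and level. That mean was multiplied by the square root of the number of UTRs, and the 4 lowest were taken. They were thus chosen on the same fold changes, and the counts below are a description. The first word was AATCACA, and ATCACAA overlaps it by all but 1 base. The others were AACTCTA and, overlapping it likewise, CAACTCT. At least 1 word was present in 49.4% of the 427 called lower genes with an annotated 3′ UTR, in 25.5% of 509 called higher genes and in 28.03% of all 11790 tested genes with one. It was present in 23 of the 59 members (39.0%), whose median log2 fold change was 0.23, against 0.16 for the 36 without (0.04 and 0.07 without siUSP9X replicate 2). Over all 11790 genes the unadjusted median with all libraries was 0.10 with a word and -0.01 without. BAP1, USP11 and USP48 held none of the 4 words.

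Of the 4 members called and the 3 nearest the threshold, USP46 and OTUD1 held a word, and their sites are printed because the 2 genes lay on opposite sides. The word is in capitals within 11 bases of context on each side, 5′ to 3′ on the transcript strand, from GENCODE release 29 transcripts (GRCh38), at chr4:52596868-52596896 (minus strand) for USP46 and chr10:23440949-23440977 (plus strand) for OTUD1.
USP46: ttcaggaaaatAACTCTAtgttgtttatt
OTUD1: tgtgtttggagAATCACAtgaactttaat
USP46, which holds a word, rose, and OTUD1 had 2.42 ± 0.81 CPM in siUSP9X and 4.07 ± 0.67 CPM in siCtrl (SD, n = 5 each). A match is a description of the sequence, and binding of the siRNA there was not tested.

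Outside the members, genes of the same system were counted from lists: other deubiquitinases, subunits of deubiquitinase complexes, ubiquitin and its E1 enzymes, and E3 ligases linked to USP9X or the Wnt pathway. Of 74 such genes tested, 6 were called (8.11%, against 7.31% of all tested genes), 4 higher and 2 lower. None of 22 other deubiquitinases was called over all libraries by edgeR or limma-voom (7.31% and 6.98% of all tested genes). DESeq2 called 1 higher, where it called 15.2% of all tested genes. An unadjusted p under 0.05 was found for 6 of them and for 27.8% of all tested genes. For these 22, edgeR without siUSP9X replicate 2 called 3 higher (USPL1, VCPIP1 and ZRANB1), where 23.4% of all tested genes were called. With offsets it called 2 higher and 3 lower (21.9% of all tested genes), and library weights gave 5 higher and 1 lower (35.3%). The same shares of all tested genes stand beside the next list. None of 10 genes of ubiquitin and its activating enzymes was called over all libraries by edgeR or limma-voom, while DESeq2 called 1 lower and 2 (UBA1 and UBA7) had an unadjusted p under 0.05. Library weights gave 2 lower in this list, and edgeR gave 0 without siUSP9X replicate 2 and 0 with offsets. UBB, which encodes ubiquitin, averaged 366 ± 49.7 CPM in siUSP9X and 433 ± 45.4 CPM in siCtrl (SD, n = 5 each).

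Of 31 complex subunits, 2 rose and 2 fell (12.9%, against 7.31% of all tested genes). Without siUSP9X replicate 2 there were 4 higher and 7 lower, in a fit that called 23.4% of all tested genes. KDM1B, a histone H3 demethylase that joins BAP1 complexes, had the lowest fold change of them: 32.4 ± 8.06 CPM in siUSP9X and 69.1 ± 6.30 CPM in siCtrl (SD, n = 5 each), with a log2 fold change at -1.09 ± 0.15 (SE, edgeR adjusted p = 0.00260) that passed whichever of the 10 libraries was left out. FOXK2, a forkhead factor that recruits BAP1 to DNA, averaged 85.1 ± 4.36 CPM in siUSP9X and 110.3 ± 6.29 CPM in siCtrl (log2 fold change -0.37 ± 0.09, SE, edgeR adjusted p = 0.0276). MBD5, a methyl-CpG-binding domain protein found with BAP1 complexes, averaged 21.4 ± 7.31 CPM in siUSP9X and 11.7 ± 1.03 CPM in siCtrl (log2 fold change 0.87 ± 0.19, SE, edgeR adjusted p = 0.0222). FOXK2 passed in 3 and MBD5 in 6 of the 10 fits with a library left out. With GC and length offsets KDM1B stood at -1.07, FOXK2 at -0.36 and MBD5 at 0.52, and all 3 passed.

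ATXN7L3B, a relative of the USP22 cofactor ATXN7L3 that binds ENY2, averaged 92.7 ± 7.77 CPM in siUSP9X and 63.6 ± 2.78 CPM in siCtrl (log2 fold change 0.54 ± 0.09, SE, edgeR adjusted p = 0.00671), and passed whichever of the 10 libraries was left out. With GC and length offsets its log2 difference was 0.19 and the call ended, while with offsets and without siUSP9X replicate 2 it was 0.33 and passed. Of 11 E3 ligases, 2 rose (18.2%, against 7.31% of all tested genes). Without siUSP9X replicate 2 there were 2 higher and 1 lower, where 23.4% of all tested genes were called. The lower ligase was MDM2, with a log2 fold change of -0.57 (edgeR adjusted p = 0.000696) in that fit. With all libraries MDM2 stood at -0.28 and was not called. SMURF1, a ligase of TGF-beta and BMP signalling that USP9X is known to stabilise, averaged 108.0 ± 8.81 CPM in siUSP9X and 77.5 ± 7.36 CPM in siCtrl (log2 fold change 0.48 ± 0.10, SE, edgeR adjusted p = 0.0190). FBXW7, a substrate receptor whose targets include MYC and Notch and which USP9X also deubiquitinates, averaged 20.5 ± 6.90 CPM in siUSP9X and 10.9 ± 1.19 CPM in siCtrl (log2 fold change 0.92 ± 0.20, SE, edgeR adjusted p = 0.0216). Both passed in 6 of the 10 fits with a library left out, and with offsets (log2 fold changes of 0.41 for SMURF1 and 0.69 for FBXW7).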

How the data were processed

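The data are mRNA counts from 10 libraries, 5 siUSP9X and 5 siCtrl, grouped by the treatment label. The deposited table holds whole-number counts per gene symbol, not normalized. Per the labels' protocols, TRIzol RNA went into a stranded mRNA kit. Per the submitters' processing notes, hg38, RSEM and DESeq2 were used, with no version or role given. Whether the counts are rounded RSEM estimates, which would split reads between similar genes before deposit, is not stated in any source used here. Whether strand was used in counting is not stated. Of the members, 28 have an exon that overlaps another gene, and pseudogenes named after a member held at most 0.58% of that member's count.

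Genes were tested with edgeR 4.0.16 in R 4.3.3 (quasi-likelihood test, robust, TMM factors, filterByExpr with a minimum count of 10, group as the only term), two-sided, with Benjamini-Hochberg adjustment over all 13934 tested genes and a threshold of 0.05. CPM are counts per 1e+06 of the TMM-scaled total, and SDs and means are of CPM. Intervals are at 95%. GC content and length come from 1 GENCODE release 29 transcript per gene, matched by symbol for 67 members and 11936 tested genes. Each library counted as 1 replicate. The lowest chi-square per degree of freedom between replicates was 5.31, so they differed by more than counting error. That value cannot tell separate cultures from technical spread. The test was also run on simulated counts with known changes, drawn without the GC and length pattern of siUSP9X replicate 2. It recovered 15 of 67 changes of 1.5-fold, 40 of 67 of 2-fold and 62 of 66 of 4-fold. Most changes of 1.5-fold were therefore missed there.

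The members, the lists and the tests were chosen with earlier results of these data known. Genes named with a value in every library were the members called, the 3 with the smallest p above the threshold, the 3 largest positive and 3 largest negative fold changes among the rest with a mean of at least 5 CPM, USP24, and USP9X. For USP43 the range is given. Up to 2 members per role list, by mean CPM, are given with their interval, and called genes of the other lists with their means. USP12, WDR48, WDR20, USP4, USP15, USP27X, USP47, USPL1, VCPIP1, ZRANB1, UBA1, UBA7, UBB and MDM2, the 5 highest members per kilobase and OTUD6B were named after their values were seen. Alternatives were other scaling factors (DESeq2 size factors, upper quartile, library totals), testing without the filter or with a minimum of 5 CPM in 5 libraries, the DESeq2 1.42.0 test, limma-voom (limma 3.58.1) with and without library weights, the replicate block, a threshold of 0.01, and each library left out. GC and length offsets (splines with 5 degrees of freedom per library) were added after the data were seen.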

Additional observations from a re-analysis of the deposited data

Results flagged for a closer look

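For 28 sets of 5 libraries (each gene described library by library, in each group), the gap between the most extreme library and its nearest neighbour was compared with the range of the group, using Dixon's 95% critical value of 0.71. Chance alone marks about 1 set in 20 when sets are independent and not chosen by their values. Here most genes were chosen by their p or fold change in these libraries, and the sets share libraries. That rate is therefore no yardstick for the 8 sets marked, 7 of them for the same library. In siUSP9X replicate 2, USP46 stood at 64.1 CPM (next highest siUSP9X library 38.9 CPM) and USP48 at 171 CPM (next 128 CPM). USP53 stood at 118 CPM (next 45.1 CPM), USP32 at 183 CPM (next 90.8 CPM) and USP24 at 546 CPM (next 235 CPM). USP34 stood at 681 CPM (next 207 CPM) and USP37 at 77.7 CPM (next 24.0 CPM). This is the library with the low GC content and low share of ribosomal protein mRNA described above, and the 7 genes have GC-poor transcripts relative to the members called lower. The part of composition in these values was not tested. In siCtrl replicate 5, OTUD1 stood at 5.25 CPM, where the next highest siCtrl library had 3.94 CPM.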

How the results depend on the processing

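USP9X was lower under every alternative, with a log2 fold change of -3.67 to -3.14 when 1 library was left out. The counts of members depended on the processing. The 2 higher and 2 lower members became 1 and 2 with DESeq2 size factors, 1 and 1 with no filter, 6 and 5 with DESeq2, 15 and 9 with limma-voom with library weights, 0 and 0 with a threshold of 0.01, 10 and 8 with GC and length offsets, and 10 and 12 with those offsets and without siUSP9X replicate 2. Correlations of same-numbered libraries ran from -0.42 to 0.23. With 5 libraries a group, siUSP9X replicate 2 among them, these cannot settle whether the replicate numbers pair the libraries. With the replicate block 0 members were higher and 0 lower. With GC and length offsets and the replicate block 3 were higher (USP46, USP48 and USP53) and 1 lower (USP15). Leaving out 1 library gave 0 to 9 members higher and 0 to 7 lower, where the highest counts came without siUSP9X replicate 2 (9 and 7) and 0 of each came without siCtrl replicate 3 or siCtrl replicate 4. Over all tested genes, 570 higher and 449 lower became 1134 and 988 with DESeq2, 2476 and 2445 with library weights, 34 and 57 with the replicate block, 102 and 136 at 0.01, 1606 and 1448 with offsets, 917 and 889 with offsets and the block, 2261 and 2365 with offsets and without siUSP9X replicate 2, and 170 to 1674 and 189 to 1620 with 1 library left out. For the genes outside the members, 4 higher and 2 lower became 3 and 1 with no filter, 5 and 6 with DESeq2, 14 and 11 with library weights, 0 and 0 with the block, 1 and 1 at 0.01, 6 and 8 with offsets, 4 and 5 with offsets and the block, 10 and 19 with offsets and without siUSP9X replicate 2, and 1 to 9 and 1 to 8 with 1 library left out. Of the members described, none called over all libraries changed sign. USP15 (0.04) became -0.14 without siUSP9X replicate 2 and -0.54 with offsets. USP14 (0.07) became -0.22 with offsets, -0.23 with offsets and the block, -0.14 with offsets and without siUSP9X replicate 2 and -0.026 without that library alone (up to 0.138 without siCtrl replicate 1). USP7 became -0.048 and USP33 -0.023 with offsets and without siUSP9X replicate 2, and OTUD5 became 0.029 with offsets and 0.026 with offsets and the block. The cause of these changes was not tested. With 5 libraries a group, the median SE was 0.18 and 30 of 55 uncalled members still allow a rise of 1.5-fold, and the mRNA values say nothing of protein or enzyme activity.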
